A study of Mus musculus with 12 samples.

Results

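The 40 genes described here work in DNA replication and in mitosis. Their levels were followed in cells from mouse colon carcinomas, after a step to deplete tumour cells. The mice were treated with an immunostimulatory peptide, with a checkpoint antibody or with both, or were controls. They were found by their symbols among the 19921 symbols of the count tables. The replication class holds 10 genes: Mcm2, Mcm3, Mcm4, Mcm5, Mcm6, Mcm7, Pcna, Rrm1, Rrm2 and Tyms. The mitotic class holds 25 genes that build chromosomes, kinetochores and the spindle or drive entry into and exit from mitosis. The 5 others are Mki67, which coats mitotic chromosomes and marks dividing cells, Tk1, Cks1b, Cks2 and Stmn1. All 40 had counts, and 33 of them were among the 5443 genes with enough counts to be tested.

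The 12 libraries came from tumours of Colon26, a mouse colon carcinoma line, grown under the skin of wild-type BALB/c mice from 200000 injected cells. Each tumour was taken on day 10, digested with collagenase and DNase I and passed over Percoll to deplete tumour cells and dead cells. Polyadenylated RNA of the cells left was read as 5′ tags (5′SAGE-seq, serial analysis of gene expression), so that each captured transcript end gives 1 read whatever its length. There were 4 groups of 3 mice. The control group is labelled only as control, with no vehicle named. The minP1 group received a peptide of the chromatin protein HMGN1 into the peritoneum on day 9, at 0.08 µg. The anti-PD-L1 group received an antibody to PD-L1, a ligand that restrains T cells, by the same route on days 4 and 8, at 200 µg each time. The combination group received both, and its peptide is named in the sample titles only, while its treatment label gives a plus sign and the antibody. Neither age nor sex is given in the sources used here.

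Before a cell divides it copies its genome once. The Mcm2 to Mcm7 proteins form the ring-shaped helicase that opens the double helix, Pcna is the sliding clamp that holds DNA polymerases on the template, and the ribonucleotide reductase subunits Rrm1 and Rrm2 and thymidylate synthase (Tyms) supply the nucleotides. The copied chromosomes are then condensed by topoisomerase II alpha (Top2a) and the condensin subunits Smc2 and Smc4, attached to the spindle through centromere proteins such as Cenpa, Cenpe and Cenpf, and separated after the anaphase-promoting complex, with its activator Cdc20 and its conjugating enzyme Ube2c, marks cyclins for destruction. Transcripts of both classes are high in cycling cells, with the replication genes peaking earlier in the cycle than the mitotic genes. The RNA was pooled from the cells left after Percoll. In it, fewer cycling cells, a different mix of cells and less RNA per cycling cell cannot be told apart.

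Library totals ranged from 133917 to 473273 counts, and the combination libraries (133917 to 196109) lay mostly below the others. Thinned to 1 common depth, the combination libraries held 9800 to 10464 genes with a count against 10545 to 11656 in the control libraries. The summed level of Bc1 and Lrrc17, the transcripts by which libraries of this series stood apart in earlier results, was 14.60 to 16.18 on the log2 scale of CPM (counts scaled to a common total per library) in the combination and 13.82 to 14.62 in the control group. Of 18 carcinoma and epithelial markers, 13 were read from the tables, and they summed to 128 to 363 CPM in control and 145 to 221 CPM in combination libraries. Ereg gave 212 of their 253 control counts and Krt8 gave 1. Muc1, Vil1 and Areg had 1, 2 and 4 reads in control and 0 in the combination. Others went the other way: Krt18 had 0 and 7 reads (all 7 in combination replicate 2), Lgals4 1 and 6 and Cldn3 0 and 1. The 14 macrophage and monocyte markers summed to 2012 to 2220 CPM in control libraries, 1912 to 2611 under minP1, 2635 to 2804 under anti-PD-L1 and 3264 to 5719 under the combination. Among them Apoe was higher in the combination (177 ± 58.9 CPM in control and 1257 ± 589, SD, n = 3) and Lyz2 was lower (128 ± 15.9 and 49.4 ± 19.8 CPM). The 10 neutrophil markers read of 12 summed to 325 to 386 CPM in control and 615 to 691 in combination libraries, with Ly6g at 0 in both groups and Retnlg at 0 in the combination. These markers went both ways: Cxcr2 was lower (276 ± 33.9 CPM in control and 123 ± 11.4 in the combination, n = 3, adjusted p = 0.0017, edgeR) and Mmp9 was higher (3.39 ± 3.69 and 164 ± 58.8 CPM). The 11 T cell markers read of 12 summed to 17.2 to 51.5 and 89.5 to 137 CPM, with Cd4 at 0 in control and Foxp3 at 0 in combination libraries. Those sums rest on 35 reads in control and 52 in the combination, of which Cd2 gave 3 and 18. No T cell marker had enough counts to be tested. The 9 erythroid markers read of 10 summed to 1414 to 2805 CPM in control libraries and 869 to 2274 in the combination, with Alas2 and Slc4a1 at 0 there, and the globins Hbb-b1 (log2 fold change -4.09) and Hbb-b2 (-5.26) were lower. The part of these shifts in the differences below was not tested, beyond the fits with library covariates given beside them.

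The combination held less transcript of Mki67, of the chromosome condensation genes Smc4, Smc2 and Top2a, of the kinetochore motor Cenpe and of the spindle gene Tpx2 than the control group, and more of Cks2 and Cenpa. Of the replication genes, Rrm2 and Mcm6 were lower, and the most abundant, Pcna and Rrm1, were not called. The abundant mitotic gene Ube2c was not called either. Of the 33 members tested, 9 were lower (Mki67, Smc4, Top2a, Cenpe, Tpx2, Smc2, Rrm2, Mcm6 and Cks1b) and 2 were higher (Cks2 and Cenpa), by edgeR's quasi-likelihood test at a Benjamini-Hochberg adjusted p under 0.05 over all 5443 genes. That is 27.3% lower and 6.06% higher among members, where 18.3% of all genes tested were lower and 16.5% were higher. The share of members called in either direction, 33.3%, was near the 34.8% of all genes, so the number of calls does not set the members apart. Their median log2 fold change was -0.41, against -0.06 over all genes tested. Levels below are CPM after scaling of the libraries by trimmed mean of M-values (TMM). The share of all genes tested whose groups do not overlap is not given here. A lack of overlap therefore does not set a member apart. The calls for Mki67, Smc4 and Cks1b held with the count of detected genes as covariate, and the other 8 were lost with it. With the Bc1 and Lrrc17 level as the covariate, the calls for Rrm2, Mcm6, Tpx2, Smc2 and Cenpa were lost.

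**Figure D1:**
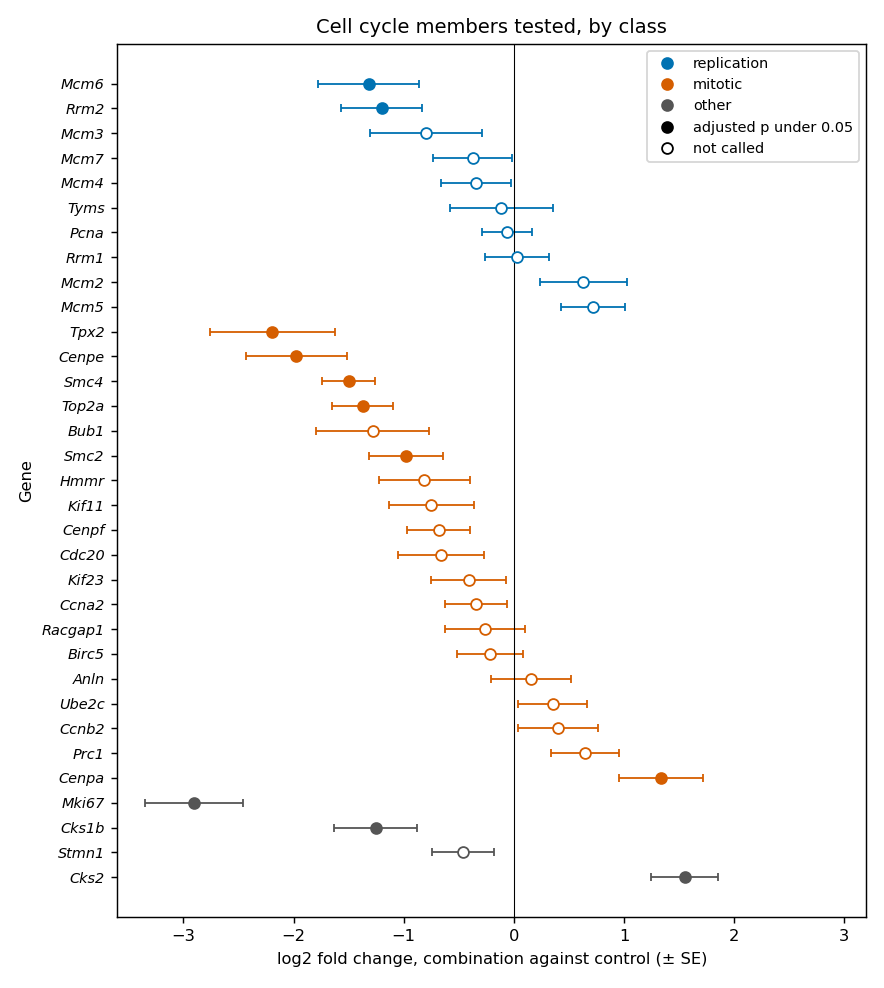
Log2 fold change (± SE) of the 33 members tested, combination against control, by class and in order of the change. Filled points passed an adjusted p of 0.05 by edgeR's quasi-likelihood test; Mki67 (-2.90) is the lowest and Cks2 (1.55) the highest.

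Mki67 (chr7:135689784-135716361 in GRCm38, minus strand) had the largest difference of the members tested. It stood at 94.4, 117 and 134 CPM in the control libraries, 82.8, 80.6 and 75.7 under minP1, 60.4, 29.7 and 51.7 under anti-PD-L1 and 8.54, 11.9 and 22.6 under the combination. No group overlapped another, with control highest, then minP1, anti-PD-L1 and the combination. Counts behind these levels were 125, 67, 33 and 7 reads per group, so the lowest level rests on few reads. The combination was 7.47-fold below control (log2 fold change -2.90, SE 0.45, adjusted p = 4.19e-05, edgeR). This call was kept whichever library was left out.

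Smc4, the condensin subunit (chr3:69004738-69034623, plus strand), showed the same order of groups. Its levels were 435, 545 and 553 CPM in control libraries, 414, 417 and 402 under minP1, 357, 285 and 351 under anti-PD-L1 and 188, 179 and 175 under the combination. The 4 groups did not overlap, and the combination libraries lay close together. The combination was 2.83-fold below control (log2 fold change -1.50, SE 0.24, adjusted p = 5.55e-05, edgeR). Its partner Smc2 stood at 123, 267 and 258 CPM in control libraries, 124, 216 and 145 under minP1, 121, 133 and 93.0 under anti-PD-L1 and 120, 131 and 79.0 under the combination. Control replicate 1 was low and overlapped the combination. Smc2 was 1.97-fold lower (log2 fold change -0.98, SE 0.33, adjusted p = 0.0257, edgeR), a call lost without control replicate 2 or 3 or combination replicate 1 or 3 (adjusted p up to 0.12). It also missed the threshold with all libraries thinned to equal depth (adjusted p = 0.0541).

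Top2a, which untangles copied DNA before segregation (chr11:98992943-99024189, minus strand), gave the most counts of the mitotic class, 15.5% of them. It stood at 375, 680 and 643 CPM in control libraries, 538, 670 and 563 under minP1, 447, 519 and 320 under anti-PD-L1 and 196, 275 and 181 under the combination. The combination lay below every other library, while the other 3 groups overlapped. It was 2.59-fold below control (log2 fold change -1.37, SE 0.28, adjusted p = 0.000648, edgeR), with any library left out too.

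**Figure D2:**
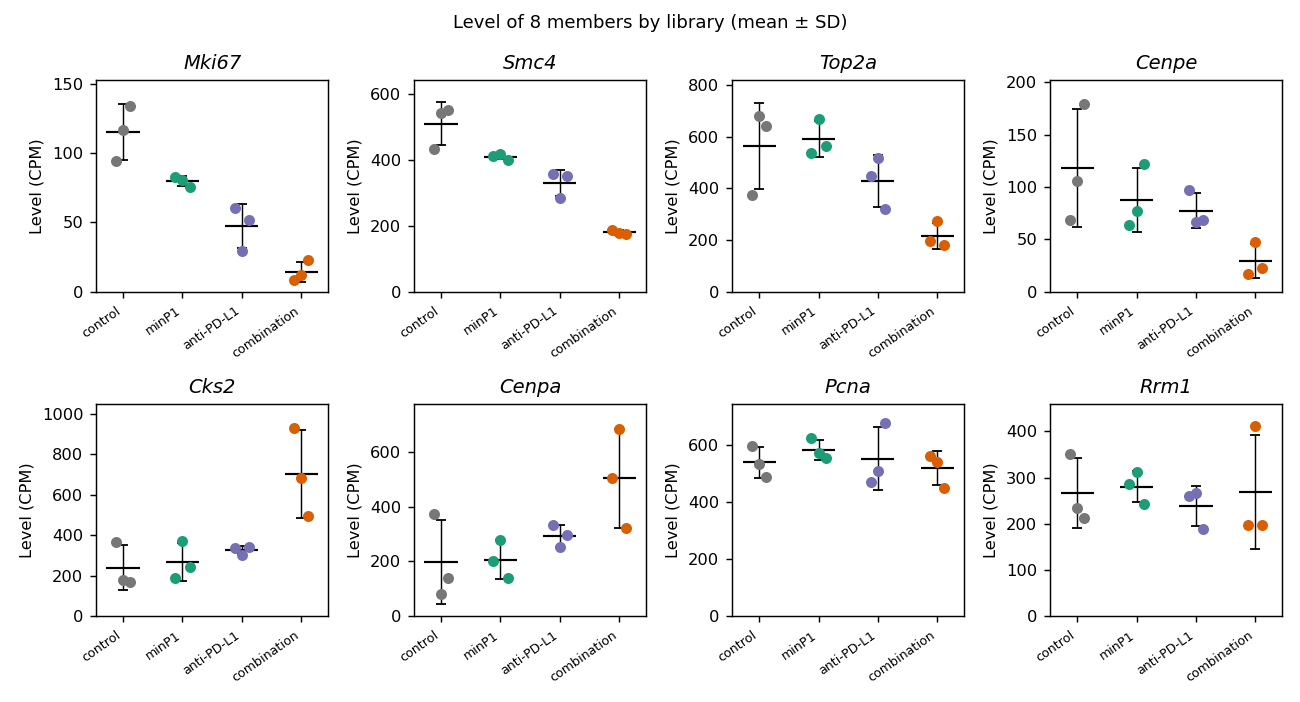
Level of 8 members in each library (CPM, TMM-scaled; points are single mice, the bar and whiskers the mean ± SD of 3). The 4 groups step down without overlap for Mki67 and Smc4, the combination is lowest for Top2a and Cenpe and highest for Cks2, and all 4 groups overlap for Pcna and Rrm1.

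Among the centromere and kinetochore genes, the motor Cenpe was lower and the centromeric histone Cenpa was higher. Cenpe stood at 68.7, 106 and 179 CPM in control libraries, 64.0, 76.9 and 122 under minP1, 96.7, 66.7 and 68.9 under anti-PD-L1 and 17.1, 47.7 and 22.6 under the combination. Every combination library was below every other library, and the control libraries were spread widely. The combination was 3.93-fold below control (log2 fold change -1.97, SE 0.46, adjusted p = 0.00211, edgeR), on 14 reads against 133. Cenpa stood at 372, 80.4 and 141 CPM in control libraries, 203, 278 and 138 under minP1, 332, 252 and 296 under anti-PD-L1 and 504, 686 and 322 under the combination. Control replicate 1 was high and lay above combination replicate 3, so the groups overlap. Cenpa was 2.52-fold higher than in control (log2 fold change 1.33, SE 0.38, adjusted p = 0.00903, edgeR), a call lost without control replicate 2 (adjusted p = 0.0534) or combination replicate 2 (adjusted p = 0.0699). With the count of detected genes as covariate its log2 fold change was -0.081 (adjusted p = 0.906), and with the Bc1 and Lrrc17 level it was 0.43 (adjusted p = 0.457). Cenpf, a large kinetochore protein, was at 129 to 227 CPM in control and 102 to 113 in combination libraries, with no overlap, and missed the threshold (log2 fold change -0.68, adjusted p = 0.0636, edgeR). The checkpoint kinase Bub1 was at 65.8 to 85.1 and 11.3 to 59.7 CPM, also with no overlap and also short of it (log2 fold change -1.28, adjusted p = 0.0542, edgeR).

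Of the spindle genes, Tpx2, which nucleates spindle microtubules and activates Aurora A, was called. It stood at 97.3, 95.1 and 78.4 CPM in control libraries, 33.9, 51.3 and 75.7 under minP1, 18.1, 92.7 and 34.4 under anti-PD-L1 and 0, 23.9 and 28.2 under the combination. The control libraries lay above all minP1 and all combination libraries, and anti-PD-L1 replicate 2 reached the control level. The combination was 4.57-fold below control (log2 fold change -2.19, SE 0.57, adjusted p = 0.00486, edgeR), on 9 reads against 95. Hmmr (log2 fold change -0.81), a spindle assembly factor, and the motor Kif11 (-0.75) were not called. Hmmr was at 69.4 to 98.7 CPM in control and 39.5 to 59.8 in combination libraries, without overlap, whereas the Kif11 groups overlapped.

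The central spindle and cytokinesis genes Prc1 (log2 fold change 0.65), Anln (0.15), Racgap1 (-0.26) and Kif23 (-0.41) were not called, and their control and combination libraries overlapped. The same held for Cdc20 (-0.66), Ube2c (0.35), Birc5 (-0.22), the survivin subunit of the chromosomal passenger complex, and the cyclins Ccna2 (-0.34) and Ccnb2 (0.40). Ube2c had the second highest level of the mitotic genes averaged over all 12 libraries (392 CPM, against 358 for Smc4, which was above it in control), with 527, 285 and 262 CPM in control libraries, 312, 498 and 287 under minP1, 484, 367 and 300 under anti-PD-L1 and 580, 537 and 265 under the combination. Each of its groups spans much of the range of the others. A 5′ tag cannot be assigned with certainty where a neighbour on the other strand overlaps, because the strand setting of the counting is not given in the sources used here. This touches 7 members (Ccna2, Cdc20, Mcm7, Nusap1, Prc1, Tk1 and Ube2c), none of them called.

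Among the replication genes, 2 of 10 were lower in the combination than in control, a share near the 18.3% of all genes, and 8 were not called, with a median log2 fold change of -0.23. Rrm2, the regulated subunit of ribonucleotide reductase, stood at 258, 113 and 132 CPM in control libraries, 135, 95.2 and 151 under minP1, 78.6, 159 and 134 under anti-PD-L1 and 51.2, 77.6 and 84.6 under the combination. Control replicate 1 was far above the rest, and the combination lay below every control. Rrm2 was 2.30-fold lower (log2 fold change -1.20, SE 0.37, adjusted p = 0.0144, edgeR), a call lost without control replicate 1 (log2 fold change -0.71, adjusted p = 0.121) or combination replicate 1 (adjusted p = 0.0644). The helicase subunit Mcm6 stood at 106, 76.8 and 67.2 CPM in control libraries, 120, 43.9 and 75.7 under minP1, 60.4, 48.2 and 41.3 under anti-PD-L1 and 59.8, 29.8 and 16.9 under the combination. The control libraries lay above all combination and all anti-PD-L1 libraries, and the minP1 libraries spanned both. Mcm6 was 2.49-fold lower (log2 fold change -1.32, SE 0.46, adjusted p = 0.0285, edgeR). The call was lost without control replicate 1 or combination replicate 2 or 3 (adjusted p up to 0.153), at equal depth (log2 fold change -0.78, adjusted p = 0.27) and by DESeq2 (adjusted p = 0.0606).

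The other helicase subunits went both ways and were not called: Mcm3 (log2 fold change -0.80), Mcm7 (-0.38), Mcm4 (-0.35), Mcm2 (0.63) and Mcm5 (0.72, adjusted p = 0.0567, edgeR). Control and combination libraries did not overlap for Mcm3 (47.0 to 65.8 and 0 to 45.1 CPM) or Mcm4 (85.1 to 117 and 68.3 to 84.6 CPM). Those of Mcm5 overlapped, at 87.3 to 177 CPM in control and 171 to 214 in combination libraries. Tyms was at 40.3 to 73.1 and 17.1 to 71.6 CPM (log2 fold change -0.11). Pcna, which gave 36.7% of the replication counts, stood at 598, 534 and 490 CPM in control libraries, 625, 575 and 557 under minP1, 471, 512 and 678 under anti-PD-L1 and 563, 543 and 451 under the combination. All 4 groups overlapped, and the log2 fold change of the combination was -0.06 (SE 0.22, adjusted p = 0.857, edgeR). Rrm1, the large reductase subunit, stood at 352, 234 and 213 CPM in control libraries, 286, 311 and 244 under minP1, 260, 267 and 189 under anti-PD-L1 and 196, 412 and 197 under the combination. Combination replicate 2 was the highest of all, and the log2 fold change was 0.03 (SE 0.29, adjusted p = 0.952, edgeR).

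The small cyclin-dependent kinase subunits Cks1b and Cks2, which are close relatives, differed in opposite directions. Cks1b stood at 157, 91.4 and 80.6 CPM in control libraries, 82.8, 87.9 and 102 under minP1, 78.6, 89.0 and 138 under anti-PD-L1 and 51.2, 47.7 and 39.5 under the combination. The combination lay below every other library. Cks1b was 2.39-fold below control (log2 fold change -1.25, SE 0.38, adjusted p = 0.0131, edgeR), a call lost without control replicate 1 (adjusted p = 0.0843) or combination replicate 3 (adjusted p = 0.0530). Cks2 stood at 366, 179 and 168 CPM in control libraries, 188, 373 and 240 under minP1, 338, 304 and 341 under anti-PD-L1 and 930, 680 and 497 under the combination. Every combination library was above every other library. Cks2 was 2.93-fold above control (log2 fold change 1.55, SE 0.31, adjusted p = 0.000502, edgeR), and with the count of detected genes as covariate its log2 fold change was 0.73 (adjusted p = 0.215). The tables list Cks1brt, a retrotransposed relative of Cks1b, as a gene of its own, and how reads that match both were counted is not given in the sources used here. Stmn1, the microtubule destabiliser stathmin, stood at 467, 377 and 349 CPM in control libraries, 561, 381 and 375 under minP1, 242, 423 and 379 under anti-PD-L1 and 213, 406 and 237 under the combination. Combination replicate 2 was within the control range and the other 2 were below it, and the gene was not called (log2 fold change -0.46, adjusted p = 0.205, edgeR).

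The 7 members too low to be tested were Cdk1, the kinase that drives mitosis, its cyclin Ccnb1, the kinases Plk1, Aurka and Aurkb, the spindle protein Nusap1 and the thymidine kinase Tk1. Together they had 194 reads in the control group, 113 under minP1, 91 under anti-PD-L1 and 46 under the combination, or 152 to 215 CPM in control and 51.2 to 119 CPM in combination libraries. Cdk1 had 34 reads in control and 2 in the combination, a ratio of levels of 0.136 with a 95% counting interval of 0.0159 to 0.531. Aurkb had 22 and 3 reads, a ratio of 0.316 (0.0605 to 1.05). Ccnb1 had 24 and 18 reads and went the other way, with 13.4 to 34.3 CPM in control and 25.6 to 50.8 CPM in combination libraries. These intervals cover counting error only.

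Summed over all 25 genes, the mitotic class stood at 3629, 3412 and 3411 CPM in control libraries, 3063, 3610 and 2941 under minP1, 3185, 2873 and 2800 under anti-PD-L1 and 2698, 3091 and 2200 under the combination. The anti-PD-L1 and the combination libraries were all below the controls, and the minP1 libraries overlapped them. The replication class stood at 1900, 1433 and 1261 CPM in control libraries, 1659, 1542 and 1469 under minP1, 1445, 1464 and 1591 under anti-PD-L1 and 1298, 1593 and 1315 under the combination. These groups all overlapped. The replication to mitotic ratio was 0.438 ± 0.079 (SD, n = 3) in control, 0.489 ± 0.058 under minP1, 0.510 ± 0.057 under anti-PD-L1 and 0.531 ± 0.060 under the combination. On the log2 scale the combination exceeded control by 0.29, with a pooled SD between libraries of 0.21, and the groups overlapped. That difference was 0.12 without the most counted gene of each class, 0.13 with all 30 other members taken as mitotic and 0.17 without control replicate 3. Within the mitotic class, 5 of the 19 genes tested were lower and 1 was higher, with a median log2 fold change of -0.66, against 18.3% lower and 16.5% higher over all genes. The mitotic sum includes Cenpa, which was higher, and Ube2c, which was not called.

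**Figure D3:**
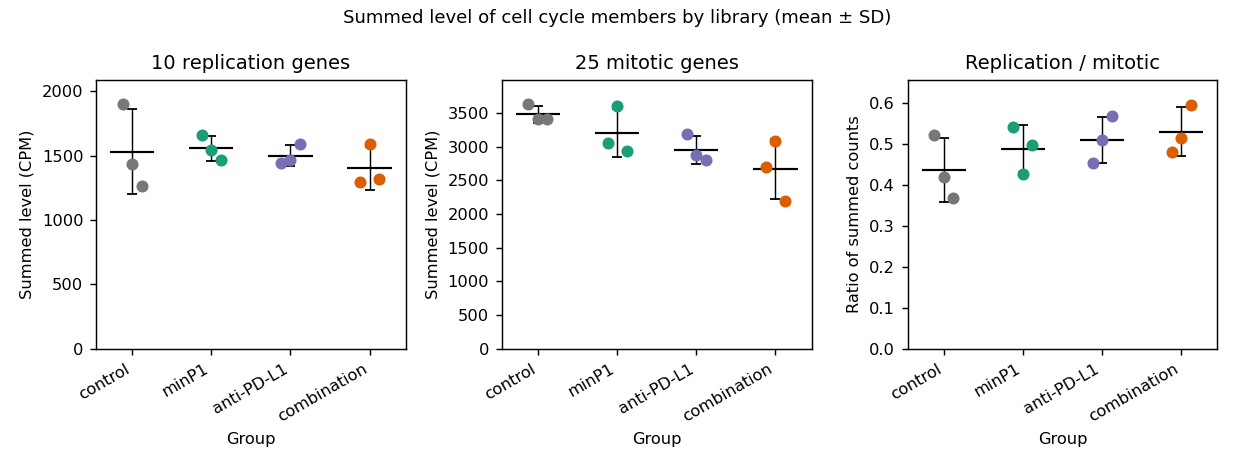
Summed level of the 10 replication genes and of the 25 mitotic genes (CPM) and the ratio of their summed counts, in each library (points are single mice, with the mean ± SD of 3). The mitotic sum lies below every control in the anti-PD-L1 and combination groups, and the ratio rises from a mean of 0.438 to 0.531 with overlap between the groups.

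Promoters are shown for 5 members whose changes differ, to set the regulatory letters of genes that were lower beside those of genes that were higher. Many mitotic genes carry a CCAAT box, bound by NF-Y, and a cell cycle genes homology region (CHR), bound by the MuvB core of the DREAM and B-Myb complexes, whereas many replication genes carry E2F sites. The sequences are from RefSeq on GRCm38.p6 and run in the direction of transcription, from 220 bases before the annotated start to 30 after it. Capitals mark every match to the CHR (TTTGAA or TTCGAA), the CCAAT box (CCAAT) or the E2F site (TTTGGCGC, TTTCCCGC, TTTGCCGC or TTTCGCGC), on either strand and with overlapping matches kept. Mki67 lies at chr7:135716350-135716599 (minus strand), Top2a at chr11:99024160-99024409 (minus strand), Mcm6 at chr1:128359676-128359925 (minus strand), Cenpa at chr5:30666666-30666915 (plus strand) and Cks2 at chr13:51645012-51645261 (plus strand).
Mki67: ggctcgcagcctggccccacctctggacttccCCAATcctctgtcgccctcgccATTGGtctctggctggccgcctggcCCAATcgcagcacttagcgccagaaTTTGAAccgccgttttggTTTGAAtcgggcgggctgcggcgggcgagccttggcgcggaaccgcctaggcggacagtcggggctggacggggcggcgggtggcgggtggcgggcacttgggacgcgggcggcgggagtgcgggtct
Top2a: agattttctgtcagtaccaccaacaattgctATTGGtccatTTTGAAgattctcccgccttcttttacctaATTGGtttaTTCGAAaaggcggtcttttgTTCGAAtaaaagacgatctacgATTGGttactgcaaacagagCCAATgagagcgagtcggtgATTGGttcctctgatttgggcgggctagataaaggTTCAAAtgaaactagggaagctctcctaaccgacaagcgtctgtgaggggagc
Mcm6: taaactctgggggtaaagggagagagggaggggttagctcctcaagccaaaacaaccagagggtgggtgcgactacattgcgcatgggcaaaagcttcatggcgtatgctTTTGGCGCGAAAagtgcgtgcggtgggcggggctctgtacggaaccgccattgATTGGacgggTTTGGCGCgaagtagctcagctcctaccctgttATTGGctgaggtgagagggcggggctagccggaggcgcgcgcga
Cenpa: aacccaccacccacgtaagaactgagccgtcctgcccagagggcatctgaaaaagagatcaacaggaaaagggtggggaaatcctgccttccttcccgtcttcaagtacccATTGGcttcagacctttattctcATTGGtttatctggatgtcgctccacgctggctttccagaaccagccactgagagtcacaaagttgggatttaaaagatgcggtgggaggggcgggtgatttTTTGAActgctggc
Cks2: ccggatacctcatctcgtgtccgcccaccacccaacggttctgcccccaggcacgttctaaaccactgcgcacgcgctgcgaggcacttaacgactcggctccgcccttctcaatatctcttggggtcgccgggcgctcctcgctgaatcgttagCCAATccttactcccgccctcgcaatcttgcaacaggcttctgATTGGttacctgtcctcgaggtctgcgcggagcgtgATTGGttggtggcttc

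The Mki67 stretch holds 2 CHR and 3 CCAAT matches, and that of Top2a 4 CHR and 5 CCAAT matches. Cenpa, which was higher, also has a CHR match, 17 bases past the start, and 2 CCAAT matches. Cks2, the other gene that was higher, has 3 CCAAT matches in the stretch and no CHR match. Mcm6 has 3 E2F matches, of which 2 overlap, and 2 CCAAT matches. In the full windows of 300 bases, the CHR was matched in 17 of the 21 mitotic genes with a promoter in the table, in 2 of 9 replication genes and in 21.7% of all 27025 genes. CHR and CCAAT occurred together in 16 of 21 mitotic genes, 2 of 9 replication genes and 8.61% of all genes. An E2F match was found in 4 of 9 replication genes (Mcm3, Mcm5, Mcm6 and Mcm7), 1 of 21 mitotic genes (Cdk1) and 2.60% of all genes. A CCAAT box was found in 8 of 9 and 18 of 21, against 41.1% of all genes. The letters did not sort the members by their change: a CHR was present in 4 of the 7 genes that were lower and have a promoter in the table, in 1 of the 2 that were higher and in 13 of 19 that were not called. A match is a description of the letters, and 34 of the 40 members were in the table.

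Long and short members differed. Of the 10 tested members whose longest coding transcript (GENCODE vM21) has 4000 bases or more, 7 were lower in the combination than in control (Mki67, Cenpe, Smc2, Top2a, Tpx2, Mcm6 and Smc4), with a median log2 fold change of -1.35. Cenpf, Kif11 and Anln were the other 3. Of the 16 members between 2000 and 4000 bases, Rrm2 alone was lower. Rrm1, at 3997 bases (log2 fold change 0.03), and Hmmr, at 3892 bases (-0.81), lay just under the bound and were not called. Of the 7 under 2000 bases, 1 was lower (Cks1b) and 2 were higher (Cks2 and Cenpa). Over all genes tested with a length, 14.8% of the 1752 genes of 4000 bases or more and 24.9% of the 1373 genes under 2000 bases were lower. Pearson's r between the log of length and the log2 fold change was -0.54 over the 33 members (Spearman's rho -0.53) and 0.07 over 5006 genes, as descriptions across genes that share the same 12 libraries. With a smooth trend on length removed from each library, an alternative chosen after seeing the data, 10 of the 11 calls were kept and that for Cks1b was lost (log2 fold change -0.83, adjusted p = 0.0675, edgeR). The trend was fitted over all genes tested with a length, which do not share the members' relation to length (r 0.07 against -0.54). This fit therefore cannot show whether the members' calls depend on length.

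**Figure D4:**
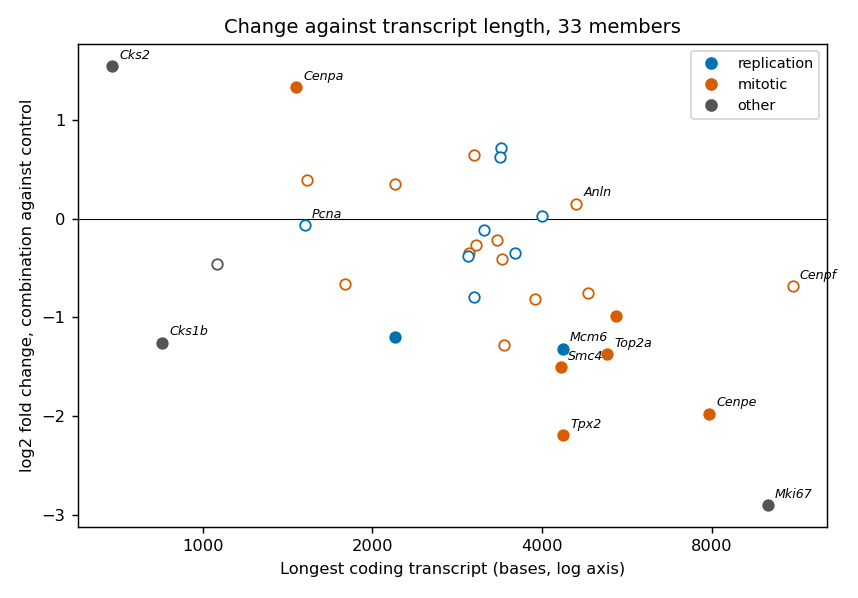
Log2 fold change of the 33 tested members, combination against control, against the length of the longest coding transcript (bases, log axis). Filled points passed an adjusted p of 0.05; of 10 members with 4000 bases or more 7 were lower, and the 2 genes that were higher, Cks2 and Cenpa, have under 2000 bases.

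Against control, minP1 alone called no gene by edgeR's quasi-likelihood test (0% of 5443), with 383 genes at an unadjusted p under 0.05 and 1 gene, no member, called by DESeq2. Hmmr was the 1 member of the 383, at 88.7, 98.7 and 69.4 CPM in control and 48.9, 47.6 and 19.8 in minP1 libraries, without overlap (log2 fold change -1.14, SE 0.38, adjusted p = 0.428). The median log2 fold change of the members was 0.00, as over all genes. Without the filter on low counts, edgeR called 51 of 19921 genes for minP1 against control.

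With anti-PD-L1 alone Mki67 was the 1 member called, and it was lower than in control. Over all genes 0.57% were lower and 0.551% higher. Mki67 was 2.50-fold below control (log2 fold change -1.32, SE 0.33, adjusted p = 0.0458, edgeR), with its 3 libraries at 29.7 to 60.4 CPM against 94.4 to 134. The call lay close to the threshold and was lost in 8 of 12 fits that each left out 1 library, among them every anti-PD-L1 library and control replicates 2 and 3 (adjusted p up to 0.158), while the log2 fold change stayed between -1.48 and -1.06. Smc4 (log2 fold change -0.63, adjusted p = 0.127) and Smc2 (-0.90, adjusted p = 0.128) came next by p, and the Smc4 groups did not overlap.

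The combination was also compared with each lone treatment, in comparisons that share the combination libraries. Against minP1, 4 members were lower (Mki67, Smc4, Top2a and Cenpe) and 2 were higher (Cks2 and Cenpa), where 10.8% of all genes were lower and 9.19% higher. The log2 fold changes were -2.36 for Mki67 (SE 0.47, adjusted p = 0.00121), -1.19 for Smc4, -1.44 for Top2a, -1.53 for Cenpe, 1.38 for Cks2 and 1.29 for Cenpa by edgeR. The Cenpe call was lost without minP1 replicate 3 or combination replicate 1 or 3, and the Cenpa call without minP1 replicate 1 or 3 or combination replicate 1 or 2. Against anti-PD-L1, Smc4 (log2 fold change -0.87, adjusted p = 0.0298, edgeR) and Top2a (-0.97, adjusted p = 0.0372) were lower and Cks2 (1.09, adjusted p = 0.0305) was higher, where 3.95% of all genes were lower and 2.99% higher. Each of these 3 calls was lost in some of the 12 fits that left out 1 library: Smc4 in 6 (every anti-PD-L1 and every combination library), Top2a in 5 and Cks2 in 4. Mki67 missed the threshold there (log2 fold change -1.58, SE 0.52, adjusted p = 0.0636), with no overlap between the groups.

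The interaction asks whether minP1 changed a gene more on top of the antibody than without it. It called no gene by edgeR (0% of 5443), with 600 genes at an unadjusted p under 0.05, and DESeq2 called 20 genes and no member. The members at an unadjusted p under 0.05 were Top2a (interaction -1.03 on the log2 scale, SE 0.38, adjusted p = 0.335) and Cks2 (0.92, SE 0.43, adjusted p = 0.446). The values for Mki67 (-1.04, SE 0.61) and Smc4 (-0.56, SE 0.32) were within 2 SE of 0. Some other edgeR fits called genes for the interaction. They were 37 of 19921 without the filter on low counts and 35 of 5443 with the Bc1 and Lrrc17 covariate. With minP1 replicate 2 and anti-PD-L1 replicate 1 left out together, 62 of 5443 were called.

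Other genes of the same machinery were read from lists put together with earlier results of these data known, and their counts are for the combination against control. Of 34 tested genes that load, prime or support the replication fork, 10 were lower and 5 were higher, with a median log2 fold change of -0.40, where 18.3% of all genes tested were lower and 16.5% higher, with a median of -0.06. By smallest p they were the polymerase alpha subunit Pola2 (log2 fold change 1.66, SE 0.32), the single-strand binding subunit Rpa2 (-3.03, SE 0.66), the licensing inhibitor geminin Gmnn (-4.14, SE 0.94) and the fork protein Wdhd1 (1.46, SE 0.34). Rpa2 was at 57.8 ± 28.4 CPM in control and 6.72 ± 1.59 in the combination, and Gmnn at 46.9 ± 13.4 and 1.88 ± 3.26 (SD, n = 3). Both combination levels rest on few reads, so the size of these 2 folds is uncertain. Of 54 tested symbols of mitosis genes, 20 were lower and 1, the passenger subunit Cdca8, was higher, with a median of -0.48, beside the same shares and median over all genes. Ran, the GTPase that guides spindle assembly, was at 519 ± 116 CPM (SD, n = 3) in control and 141 ± 43.9 in the combination (log2 fold change -1.84). The chromatin protein Hmgb2 was at 659 ± 110 and 265 ± 37.7 CPM (-1.30), the histone variant gene H2afv at 80.7 ± 22.9 and 7.74 ± 6.71 (-3.16) and the cohesin subunit Stag1 at 81.1 ± 21.4 and 7.63 ± 8.59 (-3.16). The condensin subunit Ncapg, partner of Smc2 and Smc4, was lower too (-2.35, SE 0.53).

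Of 13 tested genes that control the passage from G1 into S phase, 3 were lower and the other 10 were not called, a count near the 18.3% of all genes that were lower. Cyclin D1 (Ccnd1) was at 1251 ± 315 CPM in control and 286 ± 33.5 in the combination (log2 fold change -2.12, SE 0.25, adjusted p = 2.64e-06, edgeR). Its kinase Cdk4 was at 104 ± 17.4 and 23.3 ± 10.9 CPM (-2.11), and the repressive factor E2f4 at 91.2 ± 26.1 and 38.4 ± 19.9 CPM (-1.15). Of 13 tested p53 target genes, 6 were higher and 4 were lower, with a median log2 fold change of 0.064, where 16.5% of all genes were higher and 18.3% lower. Tob1, an antiproliferative factor, rose from 55.7 ± 8.80 to 328 ± 54.0 CPM (log2 fold change 2.53, SE 0.28), Mdm2, the ubiquitin ligase of p53, from 108 ± 31.0 to 403 ± 202 CPM (1.86) and Gadd45a, a growth arrest gene, from 64.6 ± 36.0 to 177 ± 17.7 CPM (1.45), while Bax, which promotes apoptosis, fell from 54.4 ± 14.1 to 8.70 ± 3.15 CPM (log2 fold change -2.56).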

How the data were processed

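The deposited values are whole-number counts per gene symbol, 1 table for each of the 12 samples, not normalized by the authors. The submitters' processing notes name the build mm10 and, as tools, R 3.6.1, Bowtie2 2.2.5 and DESeq2. What each did, and how reads were assigned to genes (annotation, strand, reads with several matches), is not given in the sources used here. filterByExpr kept 5443 of 19921 genes, which hold 89.8% to 93.6% of each library's counts. They were scaled by TMM factors and tested with edgeR 4.0.16 in R 4.3.3 (quasi-likelihood test, 1 mean per group, all 12 samples, Benjamini-Hochberg adjustment over the 5443 genes within each of the 6 comparisons, threshold 0.05, prior count 0.125). SE is the size of the log2 fold change divided by the square root of the test's F. DESeq2 1.42.0 was an alternative. Each sample is the tumour of a separate mouse, per the labels, so p-values measure the spread between mice. Reads carry no molecular identifiers.

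Members called in any comparison, and the 2 with the highest mean level of each class, are given library by library; of the lists of other genes, up to 4 called genes by smallest p. The members and lists were chosen with earlier results of these data known. Ncapg and Cdca8 were named after their values were seen. The tables list older and newer symbols of some mitosis genes apart (Casc5 and Knl1, Sgol1 and Sgo1). Aim1, a RefSeq synonym of the member Aurkb, is also listed apart, with 101 reads in all. Which gene that symbol names here was not settled, and its reads were not added to Aurkb. The test was tried on simulated data. CPM values are relative to all RNA read, and genes with few reads in the combination libraries, which are the shallowest, have wide errors. The numbers were not taken as pairs, because the labels say only that they name separate mice. Same-numbered samples of different groups did not all deviate together, though their median r was the higher. Of 18 such pairs 9 had r over 0.1 (range -0.14 to 0.21, median 0.096 against -0.043 for different numbers), which does not settle whether they are pairs.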

Additional observations from a re-analysis of the deposited data

How the results depend on the processing

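The single member called in anti-PD-L1 against control, Mki67, was not called (0 members) without the filter on low counts, at equal depth, with the Bc1 and Lrrc17 level or the count of detected genes as covariate, with minP1 replicate 2 and anti-PD-L1 replicate 1 left out together, with the length trend removed, or by DESeq2; leaving out 1 library each gave 0 to 3 members. In the combination against control the 11 members called became 7 with the Bc1 and Lrrc17 covariate, of which 6 were among the 11, and 3 with the count of detected genes. With the latter covariate the log2 fold change of Cenpa, combination against control, reversed to -0.081. The other settings gave 9 to 13 members. In the combination against anti-PD-L1 the 3 members became 1 at equal depth and 1 with the count of detected genes, and 0 to 4 with 1 library left out. Against minP1 the 6 became 3 with the count of detected genes. The cause of these changes was not tested. The count of detected genes does not overlap between the control and combination groups, so with it library quality and treatment cannot be told apart.

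With the replicate number as a replicate block, 0 members were called for minP1, 1 for anti-PD-L1, 12 for the combination against control, 3 against anti-PD-L1, 8 against minP1 and 0 for the interaction, and no call was lost. Over all 5443 genes, calls went from 61 to 173 for anti-PD-L1 against control with this block. They went from 1892 to 1972 for the combination against control and from 0 to 16 for the interaction. The combination libraries hold 7 Mki67, 9 Tpx2, 14 Cenpe and 15 Mcm6 reads in all, so depth limits the precision of these folds.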
